A study of Mus musculus with 9 samples.

Results

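The genes described here encode the machinery that licenses replication origins, unwinds and copies DNA, supplies deoxynucleotides and reassembles chromatin in S phase, together with regulators of the step from G1 into S phase. They were chosen as a list of 44 gene symbols, of which 43 are present among the 12413 symbols of the count table, and E2f1 was not analysed here. All 43 passed the filter on low counts and were tested among 10413 genes. mRNA was sequenced from BV-2 cells, an immortalized mouse microglial line, in 9 libraries. The BHB group (n = 3) received 1 μg/mL lipopolysaccharide (LPS), the bacterial cell-wall lipid that activates microglia, together with the ketone body β-hydroxybutyrate, given as R-3-hydroxybutyric acid at 1.5 mM. The Medium group (n = 3) received the same LPS without the ketone body, and the Control group (n = 3) received PBS. The treatments come from the sample labels and the concentrations from the study's culture methods, while exposure times before RNA was taken are not given in the sources used here. All groups are cultures of a single line, so a difference between groups is a difference between cultures, and p-values reflect only how much these libraries vary.

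Before S phase, the origin recognition complex (ORC), CDC6 and CDT1 load rings of MCM2 to MCM7 onto DNA, and geminin blocks a repeat of that loading. CDC45 and the GINS complex then join each ring to form the active helicase, DNA polymerase α with primase starts each strand, the RFC complex loads the sliding clamp PCNA, and polymerases δ and ε extend the DNA. Many of these genes are transcribed as cells pass from G1 into S phase under E2F transcription factors, which the retinoblastoma protein holds in check until cyclin-dependent kinases phosphorylate it.

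The 9 libraries held 23411672 to 32767278 counts. Medium replicate 3 stood apart from the other Medium libraries: comparing gene counts between pairs of libraries, chi-square divided by its degrees of freedom reached 32.5 and 28.7 for its pairs, against 4.29 for the remaining Medium pair and 3.23 to 10.2 for pairs within the other groups. Leaving it out changed 1 of the 129 calls made on members (43 genes in 3 comparisons), that of Gins3 in Medium against Control. Macrophage markers were present in every group, among them Cd68 at 1250.5 ± 55.4 CPM in BHB, 1388 ± 275 CPM in Medium and 1294 ± 12.5 CPM in Control and Itgam at 806 ± 55.9 CPM in BHB, 542 ± 41.1 CPM in Medium and 579 ± 20.4 CPM in Control (SD, n = 3 each). Summed over 12 such markers, CPM ranged from 3746 to 3958 in BHB, 2964 to 3886 in Medium and 4150 to 4328 in Control, and their part in the results was not tested. Aif1 averaged 1.75 CPM in BHB, 1.01 CPM in Medium and 1.33 CPM in Control, and the microglial surface markers P2ry12 and Tmem119 averaged at most 0.726 and 2.01 CPM in any group, whereas Gfap, Map2, Col1a1 and Pdgfra averaged at most 0.139 CPM.

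Most of these transcripts were lower with LPS. In Medium against Control, 38 of 43 members were lower and none was higher, where 36.3% of all genes tested were lower and 36.3% higher (edgeR's quasi-likelihood test, Benjamini-Hochberg adjusted p under 0.05). The median log2 fold change of the members was -0.96, against -0.0050 over all genes tested, and 21 of the 43 were lower by at least 2-fold, compared with 11.0% of all genes. The 5 members that did not pass the test were Orc1, Gins3, Rfc1, Tyms and E2f2. In bulk RNA, fewer cells in S phase and less of each transcript per cell cannot be told apart.

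With the ketone body added to LPS, most members were higher than with LPS alone. In BHB against Medium, 31 of 43 members were higher, where 33.2% of all genes were, and 5 were lower, where 33.6% of all genes were. The median log2 fold change was 0.47, against 0.0037 over all genes tested, and 5 members (Mcm7, Pcna, Rfc5, Rrm2 and Tk1) were higher by at least 2-fold, against 7.74% of all genes. Orc1, Cdt1, Gins3, Fen1 and Tyms were the members that were lower. Mcm10, Gins1, Rfc1, Rfc3, Pola2, Prim1 and Ccne2 did not pass the test.

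Most members were still lower in BHB than in Control. In that comparison 34 of 43 were lower, where 33.3% of all genes were, and 3 (Pcna, E2f2 and Ccne1) were higher, where 33.4% of all genes were. The median log2 fold change was -0.49, against -0.00038 over all genes, and Mcm10, Gins1 and Fen1 were lower by at least 2-fold, as were 6.55% of all genes. The comparisons share libraries, so their counts are not independent of each other. Scaling to library size alone, which shifts the median of all genes to -0.27, 0.13 and -0.14 in Medium against Control, BHB against Medium and BHB against Control, gave member medians of -1.23, 0.60 and -0.63.

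**Figure D1:**
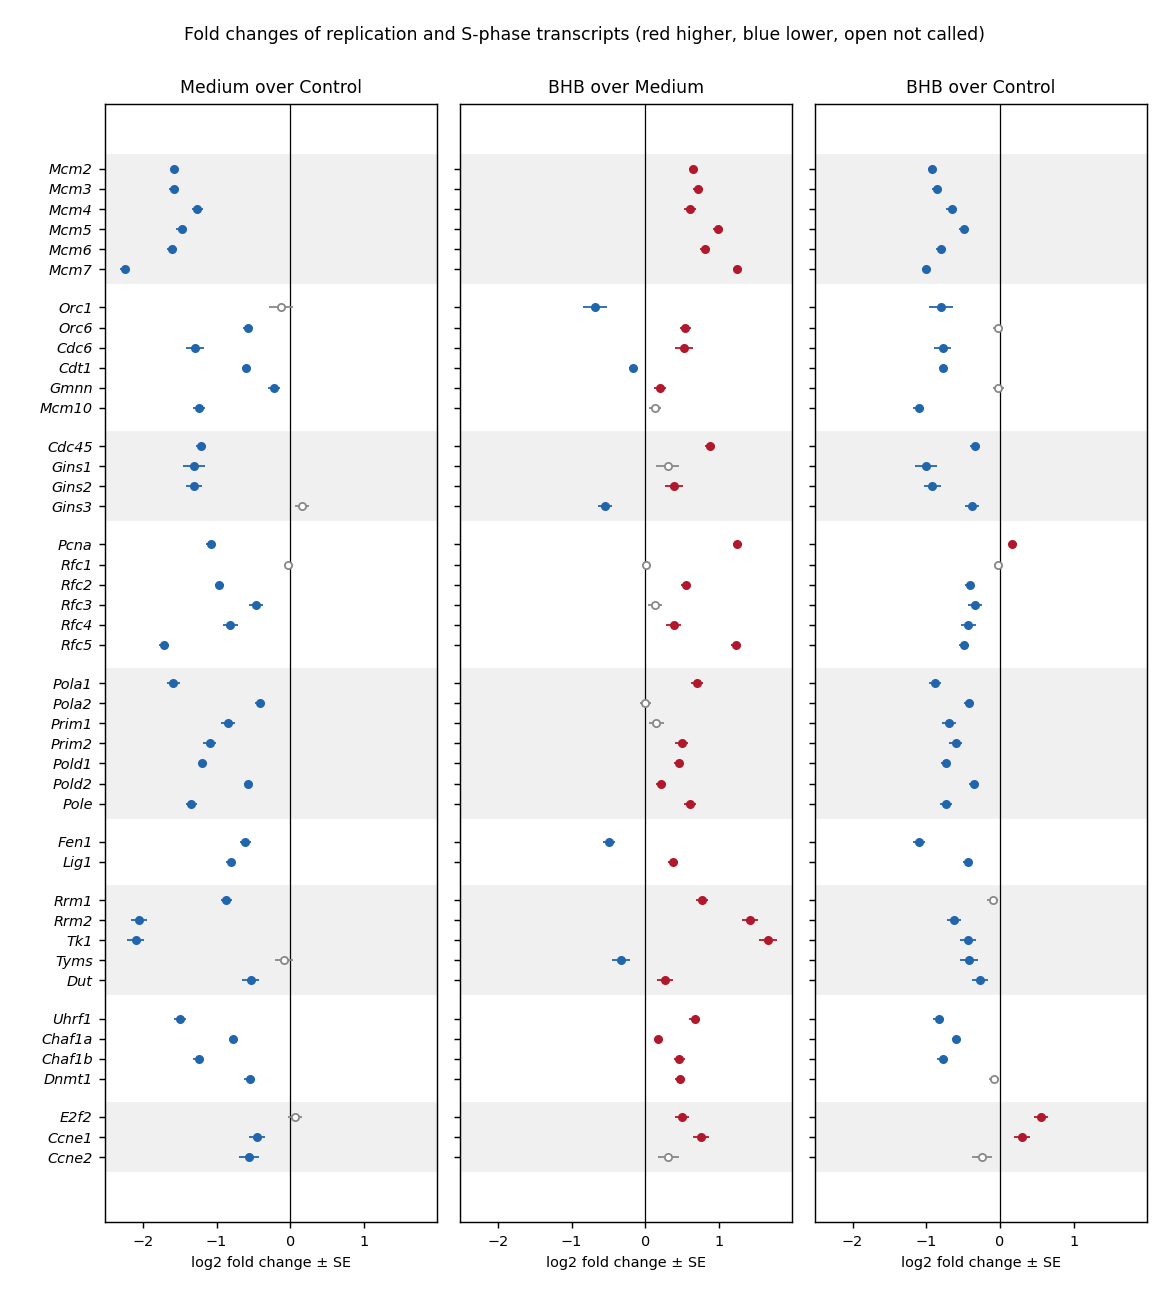
Log2 fold change (x axis) with its standard error for each of the 43 members (rows, grouped by role with alternate shading) in Medium over Control, BHB over Medium and BHB over Control. Red points were called higher, blue lower and open points were not called; 38 points are blue on the left, 31 are red in the middle and 34 are blue on the right.

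Summed over the 43 members, TMM-normalized CPM were 2609 ± 81.7 in BHB, 1820.3 ± 84.7 in Medium and 3623 ± 117 in Control (SD, n = 3 each). These CPM are counts scaled to library size multiplied by the TMM factor of each library. As a share of all counts, without further scaling, these transcripts took 0.254% to 0.264% in BHB, 0.165% to 0.167% in Medium and 0.382% to 0.412% in Control. The 3 groups did not overlap on either scale. Of the single members, 38 had no overlap between Medium and Control, 34 none between BHB and Medium and 39 none between BHB and Control, where 75.1%, 68.0% and 75.3% of all genes had none. Summed by role, the MCM2-7 ring had the largest sum in BHB and Control and the chromatin and methylation genes in Medium, and the sums of every role group were lower in Medium than in Control without overlap between libraries.

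**Figure D2:**
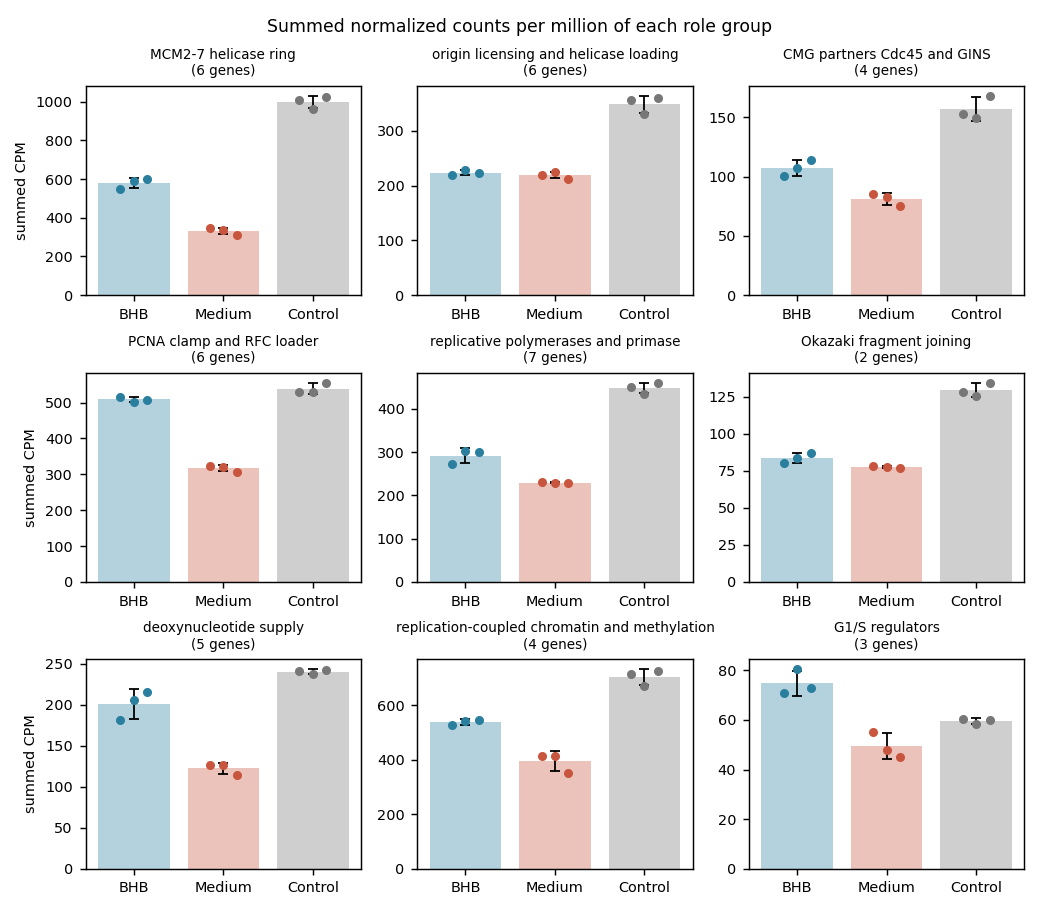
Summed TMM-normalized CPM (y axis, starting at 0) of each role group in BHB, Medium and Control. Bars are means, error bars SD and points the 3 libraries of each group; the MCM2-7 ring averaged 579 ± 27.9 CPM in BHB, 331 ± 16.6 CPM in Medium and 999 ± 32.2 CPM in Control, while origin licensing genes averaged 224 ± 4.96 CPM in BHB and 219 ± 5.95 CPM in Medium.

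The DNA just before the start sites of the members was searched for E2F recognition words. The words TTTCCCGC, TTTCGCGC, TTTGCCGC and TTTGGCGC were sought on both strands in the 250 bases before each RefSeq start (GRCm38.p6), with overlapping matches kept. Of the 35 members with a promoter entry, 10 held at least 1 word (28.6%), against 4.27% of the 8408 tested genes and 2.16% of all 27025 genes with an entry. CCAAT, the box bound by NF-Y, stood in 22 of the 35 members (62.9%), in 40.5% of tested genes and in 37.5% of all genes with an entry. TTTGAA is a word of the cell-cycle homology region that is used by genes of late cell cycle phases. It stood in 7 members (20%), in 12.6% of tested genes and in 18.3% of all genes with an entry. These matches describe letters and not bound sites. The list was made of replication and S-phase genes, so a high share of E2F words could come from that choice, whatever the fold changes.

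Mcm6 and Mcm5 held the most words among members with a single RefSeq start, and their windows are shown with the words in capitals. In both, a pair of words on opposite strands overlaps to form 1 run of capitals. The Mcm6 window lies at chr1:128359706-128359955 on the minus strand and the Mcm5 window at chr8:75109259-75109508 on the plus strand, both upstream of the GENCODE M21 gene.
Mcm6: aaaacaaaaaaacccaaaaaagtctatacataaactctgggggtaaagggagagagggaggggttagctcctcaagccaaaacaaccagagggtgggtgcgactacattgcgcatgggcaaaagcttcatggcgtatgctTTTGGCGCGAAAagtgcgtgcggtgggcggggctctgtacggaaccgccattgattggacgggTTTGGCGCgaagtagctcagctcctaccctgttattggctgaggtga
Mcm5: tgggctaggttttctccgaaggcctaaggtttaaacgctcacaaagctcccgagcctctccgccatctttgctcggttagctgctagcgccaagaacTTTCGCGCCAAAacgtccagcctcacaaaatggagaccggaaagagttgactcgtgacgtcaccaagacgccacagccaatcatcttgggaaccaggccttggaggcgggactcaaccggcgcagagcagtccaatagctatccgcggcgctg

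Not every member with a word fell under LPS. Orc1 and Gins3 each held 1 word but did not pass the test in Medium against Control, although with library sizes alone Orc1 passed it as lower in Medium (-0.40, edgeR adjusted p = 0.0311). For both genes the 30 bases around the word are shown, from chr4:108579416-108579445 and chr8:95633507-95633536, both on the plus strand. The last base of the word lies 20 bases before the Orc1 start and 34 bases before the Gins3 start in RefSeq, and each word lies inside the GENCODE M21 gene, which begins further upstream.
Orc1: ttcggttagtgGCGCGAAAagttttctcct
Gins3: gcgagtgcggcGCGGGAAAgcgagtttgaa

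Nor did every member that fell far hold one. Tk1 and Rrm2, the members with a single RefSeq start that fell furthest, had none of the 4 words within 250 bases. The parts of their windows that lie upstream of the GENCODE M21 genes are shown in lower case, from chr11:117826093-117826264 on the minus strand and chr12:24708004-24708240 on the plus strand.
Tk1: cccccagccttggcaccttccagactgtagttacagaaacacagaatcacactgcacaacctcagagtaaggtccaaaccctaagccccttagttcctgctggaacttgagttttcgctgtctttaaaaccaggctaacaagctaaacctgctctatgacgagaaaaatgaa
Rrm2: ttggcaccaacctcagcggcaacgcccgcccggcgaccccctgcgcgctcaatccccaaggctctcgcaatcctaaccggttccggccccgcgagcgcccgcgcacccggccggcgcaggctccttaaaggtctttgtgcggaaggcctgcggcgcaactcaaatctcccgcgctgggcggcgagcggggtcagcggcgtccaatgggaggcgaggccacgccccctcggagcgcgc

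The 10 members with a word had median log2 fold changes of -1.39 in Medium against Control, 0.60 in BHB against Medium and -0.79 in BHB against Control. The 25 members with an entry and no word had medians of -0.81, 0.46 and -0.44 in those comparisons. The ranges of both sets overlapped widely, and the difference between them was not tested.

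**Figure D3:**
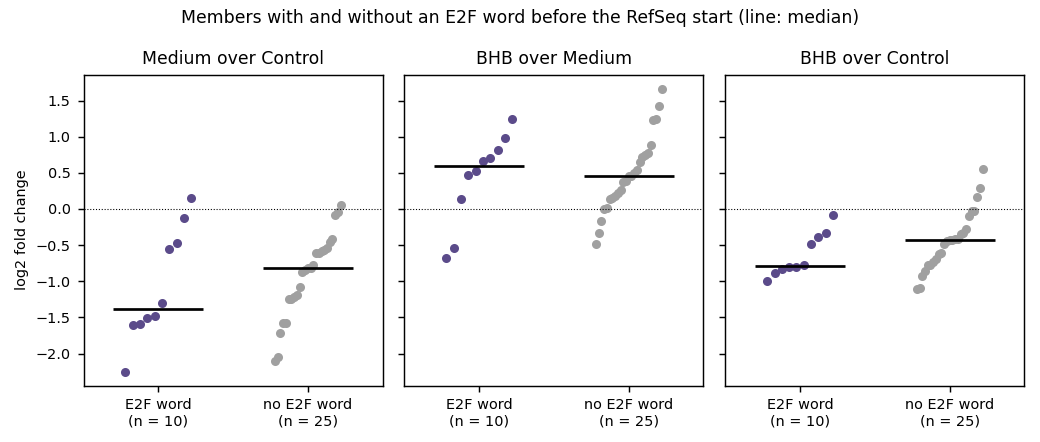
Log2 fold change (y axis) of the 10 members with an E2F word in the 250 bases before the RefSeq start and the 25 members without one, in the 3 comparisons. Points are genes and bars medians; the sets overlap in every panel, with medians of -1.39 with a word and -0.81 without one in Medium over Control.

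All 6 subunits of the MCM2-7 ring, the motor of the replicative helicase, fell by at least 2-fold in Medium and rose in BHB against Medium. Mcm7 had 62.9, 62.9 and 65.0 CPM in BHB, 26.8, 26.3 and 27.2 CPM in Medium and 127, 123 and 132 CPM in Control. The 3 groups were fully separate, with Medium lowest and Control highest. Mcm7 was 4.75-fold lower in Medium than in Control (-2.25 on the log2 scale, standard error 0.0584, edgeR adjusted p = 2.74e-13), the largest fall among the 43 members. Relative to Medium it was 2.38-fold higher in BHB (1.25 on the log2 scale, standard error 0.0581, edgeR adjusted p = 3.04e-10) and 2.00-fold lower in BHB than in Control. The other 5 subunits had log2 fold changes from -1.61 (Mcm6) to -1.26 (Mcm4) in Medium against Control, with Mcm3 at -1.58, Mcm2 at -1.57 and Mcm5 at -1.48. In BHB against Medium they ranged from 0.61 (Mcm4) to 0.99 (Mcm5), and Mcm2, Mcm3 and Mcm6 had 0.65, 0.71 and 0.81. Against Control, all 6 were lower in BHB, by between 1.40-fold (Mcm5) and 2.00-fold (Mcm7). Per kilobase of exon, Mcm3 stood at 34.0 ± 2.20 CPM per kb in BHB, 20.7 ± 1.24 in Medium and 61.8 ± 2.36 in Control. Mcm2 stood at 11.0 ± 0.417 in BHB, 6.99 ± 0.12 in Medium and 20.8 ± 0.637 in Control (SD, n = 3 each). These levels depend on the annotated exons, which together span 3752 bases for Mcm3 and 6956 bases for Mcm2. Unscaled by length, Mcm3 averaged 232 CPM and Mcm2 145 CPM in Control.

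Of the 6 genes that license origins and load or activate the ring, 5 fell in Medium against Control, while in BHB against Medium 3 rose and 2 fell. Cdc6, the ATPase that joins ORC at origins, had 15.0, 17.4 and 16.7 CPM in BHB, 11.8, 13.3 and 9.23 CPM in Medium and 28.0, 26.3 and 29.9 CPM in Control. Its groups did not overlap, and it was 2.46-fold lower in Medium than in Control (-1.30 on the log2 scale, standard error 0.12) and higher in BHB than in Medium by 1.44-fold (0.52, standard error 0.122). Orc1, the largest ORC subunit, had 5.27, 5.62 and 6.41 CPM in BHB, 9.24, 11.2 and 7.21 CPM in Medium and 9.31, 9.53 and 11.4 CPM in Control. Medium and Control overlapped, whereas every BHB library lay below all others, and Orc1 was 1.60-fold lower in BHB than in Medium (-0.68 on the log2 scale, standard error 0.165, edgeR adjusted p = 0.00226). Orc6, another ORC subunit, fell in Medium (-0.57) and rose in BHB against Medium (0.54), with BHB and Control overlapping (-0.03, edgeR adjusted p = 0.717), although it passed the test there as lower in BHB with library sizes alone (-0.17, edgeR adjusted p = 0.0370). Orc1 shares 10.8% of its exon bases with Gm12743, which was not analysed here.

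Cdt1, which brings the MCM ring to ORC and CDC6, had 114, 116 and 108 CPM in BHB, 128, 126 and 126 CPM in Medium and 202, 179 and 196 CPM in Control. Control was highest and BHB lowest without overlap. It was 1.52-fold lower in Medium than in Control and 1.12-fold lower in BHB than in Medium (-0.17 on the log2 scale, standard error 0.0575, edgeR adjusted p = 0.0177), and the call against Medium was lost without BHB replicate 3 (-0.14, edgeR adjusted p = 0.0713) and with library sizes alone. Gmnn, which encodes the CDT1 inhibitor geminin, had log2 fold changes of -0.22 in Medium against Control and 0.20 in BHB against Medium. Its first call was lost without Control replicate 3 (-0.18) or Medium replicate 1 (-0.20), and its second without Medium replicate 1 (0.17), BHB replicate 2 (0.18) or BHB replicate 3 (0.20).

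Mcm10, which helps to activate loaded helicases, had 21.6, 25.1 and 26.4 CPM in BHB, 22.4, 21.9 and 22.4 CPM in Medium and 53.3, 50.1 and 54.0 CPM in Control. All Control libraries lay above the rest, and BHB and Medium overlapped. Mcm10 was 2.36-fold lower in Medium than in Control and 2.15-fold lower in BHB than in Control (-1.11 on the log2 scale, standard error 0.0797), the largest fall in that comparison. In BHB against Medium its log2 fold change was 0.13 (edgeR adjusted p = 0.171), which passed the test without BHB replicate 1 (0.21, edgeR adjusted p = 0.0319) and with library sizes alone.

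Of the 4 partners that turn the loaded ring into an active helicase, 3 fell in Medium against Control, while in BHB against Medium 2 rose and 1 fell. Cdc45 had 57.1, 60.8 and 62.3 CPM in BHB, 33.4, 32.5 and 32.0 CPM in Medium and 75.2, 71.8 and 80.9 CPM in Control. Its groups were separate in the order Medium, BHB, Control, and it was 2.33-fold lower in Medium than in Control and higher in BHB than in Medium by 1.84-fold (log2 changes of -1.22 and 0.88, standard errors 0.0664 and 0.0665). Gins1 had 9.66, 8.80 and 13.5 CPM in BHB, 9.59, 8.52 and 7.63 CPM in Medium and 21.9, 19.0 and 23.1 CPM in Control. Control was above all other libraries, while BHB and Medium overlapped through BHB replicate 2. Gins1 was 2.48-fold lower in Medium than in Control and 2.00-fold lower in BHB than in Control, and its log2 fold change of 0.31 in BHB against Medium passed the test without BHB replicate 2 (0.43, edgeR adjusted p = 0.0347) and with library sizes alone. Gins3, of the same GINS complex, had 16.7, 17.7 and 16.6 CPM in BHB, 24.7, 27.3 and 22.4 CPM in Medium and 20.1, 22.7 and 23.9 CPM in Control. It was lower in every BHB library than in any other, 1.46-fold against Medium (-0.54 on the log2 scale, standard error 0.0968, edgeR adjusted p = 1.88e-04). Medium and Control overlapped (0.16), and without Medium replicate 3 Gins3 passed the test as higher in Medium (0.22, edgeR adjusted p = 0.0365). Gins2 fell in Medium (-1.31) and rose in BHB against Medium (0.39), but 67.3% of its exon bases are shared with Gse1, which had log2 fold changes of 0.66, -1.01 and -0.35 in the 3 comparisons. The strand settings used in counting are not given in the sources used here, and the part of such sharing in these values was not tested.

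**Figure D4:**
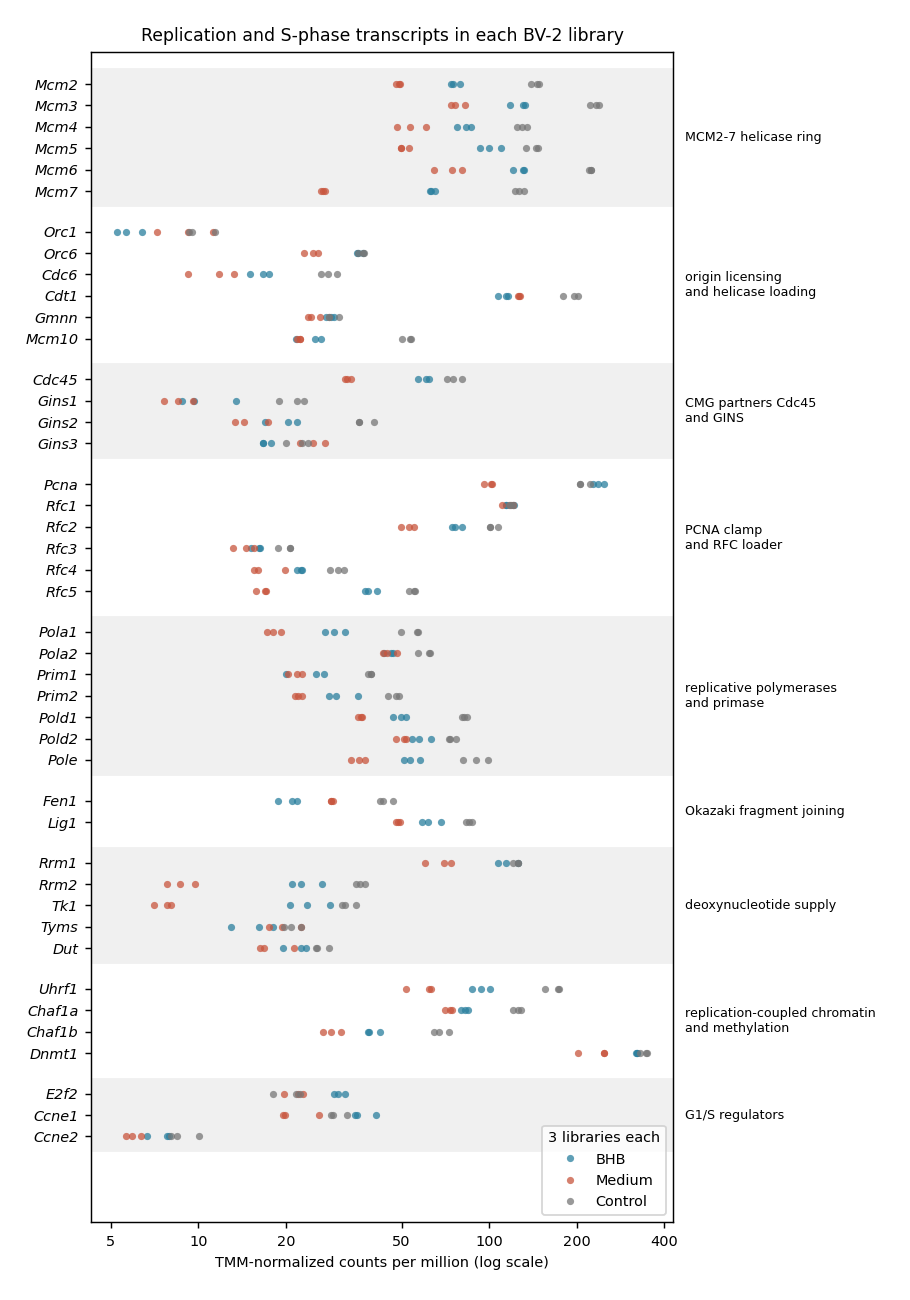
TMM-normalized CPM (x axis, log scale) of each of the 43 members (rows, grouped by role) in every library of BHB, Medium and Control. The Medium points lie left of the Control points for most rows, as for Mcm7 at 26.3 to 27.2 CPM in Medium and 123 to 132 CPM in Control, while Rfc1 shows all 9 points together.

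Pcna, the sliding clamp that tethers polymerases to DNA, was the member with the highest level per kilobase of exon in each group, at 99.1 ± 4.15 CPM per kb in BHB, 41.6 ± 1.46 in Medium and 88.2 ± 4.17 in Control (SD, n = 3 each). Unscaled by length, it had 248, 237 and 228 CPM in BHB, 102, 102 and 95.8 CPM in Medium and 206, 206 and 223 CPM in Control. It was 2.12-fold lower in Medium than in Control (-1.08 on the log2 scale, standard error 0.0575) and higher in BHB than in Medium by 2.38-fold (1.25, standard error 0.0576, edgeR adjusted p = 2.68e-10). The BHB libraries also lay above those of Control, by 1.12-fold (0.17 on the log2 scale, edgeR adjusted p = 0.0162). That call was lost without Control replicate 1 (0.15, edgeR adjusted p = 0.0657), Control replicate 2 (0.15, edgeR adjusted p = 0.0631) or BHB replicate 1 (0.14, edgeR adjusted p = 0.0629) and with library sizes alone (0.029, edgeR adjusted p = 0.658). GENCODE M21 names 2 pseudogenes of Pcna, with which reads could have been shared.

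Of the 5 subunits of the clamp loader, 4 fell in Medium against Control and 3 rose in BHB against Medium. Rfc5 had 41.0, 37.5 and 38.3 CPM in BHB, 17.1, 15.8 and 16.9 CPM in Medium and 55.2, 53.0 and 55.7 CPM in Control. The groups were separate, with Rfc5 3.29-fold lower in Medium than in Control and higher in BHB than in Medium by 2.34-fold (log2 changes of -1.72 and 1.23, standard errors 0.0704 and 0.0706). Rfc1, the large subunit, had 114, 115 and 122 CPM in BHB, 118, 121 and 110.4 CPM in Medium and 117, 121 and 119 CPM in Control. All 9 libraries overlapped, and Rfc1 was the only member called in no comparison (log2 changes of -0.037, 0.01 and -0.027, each with a standard error of 0.054), although with library sizes alone it passed the test in all of them (-0.31, 0.14 and -0.17). Rfc2, Rfc3 and Rfc4 lay between, at -0.96, -0.47 and -0.81 in Medium against Control, where all passed the test, and at 0.55, 0.13 and 0.39 in BHB against Medium, where Rfc3 did so only with library sizes alone (0.26). Rfc2, Rfc4 and Rfc5 share 15.1%, 12.7% and 10.7% of their exon bases with Lat2, Eif4a2 and Wsb2.

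All 7 genes of the replicative polymerases and primase were lower in Medium than in Control, and all 7 were lower in BHB than in Control. Pola1, the catalytic subunit of polymerase α, had 27.4, 29.2 and 32.0 CPM in BHB, 18.0, 17.2 and 19.2 CPM in Medium and 49.9, 56.4 and 57.2 CPM in Control. Its groups were separate, and it was 3.01-fold lower in Medium than in Control (-1.59 on the log2 scale, standard error 0.0848) and higher in BHB than in Medium by 1.63-fold (0.70, standard error 0.0856). Its accessory subunit Pola2 fell less in Medium (-0.42) and stood at 0.0037 in BHB against Medium (standard error 0.0686, edgeR adjusted p = 0.966). The primase subunits Prim1 and Prim2 had -0.85 and -1.10 in Medium against Control. In BHB against Medium, Prim2 rose (0.50), while Prim1 had 0.15 and passed the test without BHB replicate 1 (0.27, edgeR adjusted p = 0.0138) and with library sizes alone. The catalytic subunits Pold1 of polymerase δ and Pole of polymerase ε fell by at least 2-fold in Medium (-1.19 and -1.34) and rose in BHB against Medium (0.46 and 0.61). Pold2, an accessory subunit of polymerase δ, changed by -0.57 and 0.22, and its second call was lost without BHB replicate 2 (0.16, edgeR adjusted p = 0.0649).

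FEN1 removes the flap at the end of an Okazaki fragment and LIG1 seals the nick, and their transcripts went opposite ways with the ketone body. Fen1 had 21.0, 21.8 and 18.7 CPM in BHB, 28.7, 29.0 and 28.7 CPM in Medium and 43.1, 42.0 and 46.8 CPM in Control. The groups were separate with BHB lowest, so that Fen1 was 1.40-fold lower in BHB than in Medium (-0.49 on the log2 scale, standard error 0.0791, edgeR adjusted p = 7.84e-05) and 2.14-fold lower in BHB than in Control. Lig1 had 58.9, 61.7 and 68.4 CPM in BHB, 49.2, 48.7 and 47.9 CPM in Medium and 85.1, 83.3 and 87.6 CPM in Control. Its groups were separate with Medium lowest, and it was higher in BHB than in Medium by 1.30-fold (0.37 on the log2 scale, standard error 0.0649). In Medium against Control both fell, Fen1 by 1.53-fold and Lig1 by 1.76-fold. Of the exon bases of Fen1, 78.8% are shared with the antisense gene Gm10143, which was not analysed here, and the part of that sharing in the Fen1 values was not tested.

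Among enzymes that supply deoxynucleotides, Tk1 and Rrm2 had the largest changes. Tk1, the cytosolic thymidine kinase, had 20.6, 23.6 and 28.3 CPM in BHB, 7.79, 8.06 and 7.02 CPM in Medium and 34.9, 31.9 and 31.2 CPM in Control. The groups were separate, and Tk1 was 4.29-fold lower in Medium than in Control (-2.10 on the log2 scale, standard error 0.119) and higher in BHB than in Medium by 3.17-fold (1.66, standard error 0.119, edgeR adjusted p = 2.41e-08), the largest rise of the members. Rrm2, the small subunit of ribonucleotide reductase, had 21.0, 26.6 and 22.6 CPM in BHB, 8.62, 9.74 and 7.82 CPM in Medium and 37.5, 34.8 and 36.0 CPM in Control. It too had separate groups and was 4.14-fold lower in Medium than in Control and higher in BHB than in Medium by 2.69-fold (log2 changes of -2.05 and 1.43, standard errors 0.109 and 0.11). Rrm1, the large subunit, fell in Medium (-0.87) and rose in BHB against Medium (0.77), and BHB and Control overlapped (-0.10, edgeR adjusted p = 0.259), while with library sizes alone Rrm1 passed the test as lower in BHB than in Control (-0.24, edgeR adjusted p = 0.00441).

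Tyms, the thymidylate synthase of the de novo route, had 12.9, 18.0 and 16.1 CPM in BHB, 19.4, 22.5 and 17.4 CPM in Medium and 22.5, 19.7 and 20.8 CPM in Control. Medium and Control overlapped, although with library sizes alone Tyms passed the test as lower in Medium (-0.36), and BHB and Medium overlapped through BHB replicate 2. Tyms was called 1.26-fold lower in BHB than in Medium (-0.33 on the log2 scale, edgeR adjusted p = 0.0305), a call that was lost without Medium replicate 2 (-0.23), BHB replicate 1 (-0.21) or BHB replicate 3 (-0.35), with library sizes alone (-0.20) and with the 2 groups fitted alone (-0.32). Of Tyms, GENCODE M21 names 1 pseudogene, with which reads could have been shared. Dut, which removes dUTP, had log2 fold changes of -0.54, 0.27 and -0.27 in Medium against Control, BHB against Medium and BHB against Control. The last pair of calls, with edgeR adjusted p = 0.0453 and 0.0394, was lost in most fits that left out a library: without any Control library (0.26 to 0.27), Medium replicate 1 (0.21), Medium replicate 2 (0.19), BHB replicate 2 (0.22) or BHB replicate 3 (0.24) against Medium, and without Control replicate 1 (-0.30), 2 (-0.29) or 3 (-0.22) or BHB replicate 1 (-0.19) or 3 (-0.30) against Control.

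The 4 genes that restore chromatin and DNA methylation behind the fork were lower in Medium and higher in BHB than in Medium. Uhrf1, which recruits the maintenance methyltransferase to newly copied DNA, had 87.1, 94.2 and 101 CPM in BHB, 63.4, 62.2 and 51.9 CPM in Medium and 173, 155 and 174 CPM in Control. Its groups did not overlap, and it was 2.83-fold lower in Medium than in Control and higher in BHB than in Medium by 1.59-fold (log2 changes of -1.50 and 0.67, standard errors 0.0816 and 0.0813). Dnmt1, that methyltransferase, changed less, at -0.55 in Medium against Control, 0.47 in BHB against Medium and -0.083 in BHB against Control, where it passed the test only with library sizes alone (-0.22, edgeR adjusted p = 0.00249). Of the subunits of the histone chaperone CAF-1, Chaf1b had -1.24 and 0.46 in Medium against Control and BHB against Medium, and Chaf1a -0.78 and 0.18. Chaf1a shares 52.5% of its exon bases with Ubxn6, which had 0.47 and -0.37.

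Of the 3 regulators of entry into S phase that were tested, 2 were higher in BHB than in Control. E2f2, an activating E2F, had 29.2, 31.8 and 30.2 CPM in BHB, 23.0, 22.0 and 19.8 CPM in Medium and 18.0, 21.7 and 22.4 CPM in Control. Medium and Control overlapped (0.06, edgeR adjusted p = 0.592), and every BHB library lay above both, by 1.41-fold against Medium and 1.47-fold against Control (0.55 on the log2 scale, standard error 0.0955, edgeR adjusted p = 1.35e-04). Ccne1, which encodes cyclin E1, the CDK2 partner at the start of S phase, had 35.0, 40.7 and 34.7 CPM in BHB, 25.9, 19.9 and 19.6 CPM in Medium and 32.5, 28.5 and 29.0 CPM in Control. Its groups did not overlap, with Medium lowest and BHB highest. It was 1.37-fold lower in Medium than in Control, higher in BHB than in Medium by 1.69-fold, and 1.23-fold higher in BHB than in Control (edgeR adjusted p = 0.0241), the last of which was lost without Control replicate 2 (0.26), Control replicate 3 (0.28) or BHB replicate 2 (0.22) and with library sizes alone (0.16). Ccne2, for cyclin E2, had 6.64, 7.79 and 7.90 CPM in BHB, 6.37, 5.92 and 5.65 CPM in Medium and 10.1, 8.06 and 8.41 CPM in Control. It was 1.48-fold lower in Medium than in Control, and in BHB against Medium it had a log2 fold change of 0.31 (edgeR adjusted p = 0.0601), which passed the test without BHB replicate 1 (0.39, edgeR adjusted p = 0.0400) and with library sizes alone. In BHB against Control it passed only with library sizes alone (-0.39). Ccne2 shares 17.4% of its exon bases with Ints8.

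Further genes of the same pathways were counted in the same way. Over all genes tested, 36.3% were lower and 36.3% higher in Medium against Control. The shares were 33.2% higher and 33.6% lower in BHB against Medium, and 33.4% higher and 33.3% lower in BHB against Control. Among 40 other tested genes of forks and origins, Medium against Control gave 29 lower and 6 higher, BHB against Medium 21 higher and 9 lower, and BHB against Control 5 higher and 23 lower. Dscc1, a subunit of an alternative clamp loader, had the largest changes, with 3.76 ± 0.635 CPM in BHB, 0.673 ± 0.0351 CPM in Medium and 9.16 ± 0.121 CPM in Control (SD, n = 3 each), and log2 fold changes of -3.76, 2.47 and -1.29 in Medium against Control, BHB against Medium and BHB against Control. Clspn and Tipin, which stabilize forks, had -1.43 and -1.26 in Medium against Control and 0.83 and 0.70 in BHB against Medium. Hells, a chromatin remodeler, had -1.18 in Medium against Control and -0.82 in BHB against Control, and Topbp1, which helps to fire origins, rose in BHB against Medium (0.64). Orc5, an ORC subunit, was 2.05-fold higher in BHB than in Control, while Asf1b, a histone chaperone, and Cdca7 were lower (-0.90 and -0.96).

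Among 16 other genes of deoxynucleotide and folate metabolism, Medium against Control gave 8 lower and 5 higher. Of all genes, 36.3% were lower there and 36.3% higher. BHB against Medium gave 5 higher and 2 lower, where 33.2% of all genes were higher and 33.6% lower. Shmt1, the cytosolic serine hydroxymethyltransferase, had -2.38 and 1.01 in those comparisons, and its mitochondrial counterpart Shmt2 fell in Medium (-1.01). Tk2, the mitochondrial thymidine kinase, rose in BHB against Medium (0.54), and Samhd1, which breaks down dNTPs, fell (-0.30). The nucleoside diphosphate kinases Nme1 and Nme2 rose in Medium against Control (0.72 and 0.63). In BHB against Control 4 of these genes were higher and 8 lower, where 33.4% of all genes were higher and 33.3% lower. Dctd, the dCMP deaminase, had -1.04 there.

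Among 15 tested genes of the retinoblastoma and E2F network, Medium against Control gave 10 lower and 2 higher. Of all genes, 36.3% were lower there and 36.3% higher. BHB against Medium gave 7 higher and 7 lower, where 33.2% of all genes were higher and 33.6% lower. BHB against Control gave 3 higher and 9 lower, where 33.4% of all genes were higher and 33.3% lower. Mybl2, a cell cycle transcription factor that is itself an E2F target, had -1.68 in Medium against Control and 0.89 in BHB against Medium. E2f8, a repressor of the family, had -2.24 and 0.66, and Tfdp1, the common E2F partner, and Rbl1, a pocket protein, fell in Medium (-1.31 and -0.99). E2f4 rose in BHB against Medium (0.54) and Tfdp2 fell (-0.53), while E2f3, an activator like E2f2, was lower in BHB than in Control (-1.04).

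Among 21 tested mitosis genes, Medium against Control gave 20 lower and 0 higher, where 36.3% of all genes were lower and 36.3% higher. BHB against Medium gave 10 higher and 0 lower, where 33.2% of all genes were higher and 33.6% lower. The kinesins Kif20a and Kif11, the transcription factor Foxm1 and topoisomerase Top2a had -1.44, -1.25, -1.45 and -1.04 in Medium against Control. Bub1, a spindle checkpoint kinase, rose with Kif20a and Top2a in BHB against Medium (1.11, 1.11 and 0.90), while the proliferation marker Mki67 had 0.10 there and -1.20 in BHB against Control. In that comparison 2 of the 21 were higher and 16 lower, where 33.4% of all genes were higher and 33.3% lower.

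Among 11 tested D cyclins, their kinases and CDK inhibitors, Medium against Control gave 7 higher and 3 lower. Of all genes, 36.3% were higher there and 36.3% lower. BHB against Medium gave 3 higher and 4 lower, where 33.2% of all genes were higher and 33.6% lower. The 3 that fell in Medium were Ccnd1, Ccnd2 and Cdk4 (-1.04, -1.21 and -1.09), and Cdk6 rose (0.80). In BHB against Medium, Cdk4 and Ccnd3 rose (0.82 and 0.60) and Cdk6 fell (-1.04). Cdkn1a, which encodes the CDK inhibitor p21, had 335, 288 and 346 CPM in BHB, 115, 109.6 and 113 CPM in Medium and 69.1, 71.3 and 69.9 CPM in Control. It was highest in every BHB library, 2.87-fold above Medium and 4.61-fold above Control. In BHB against Control 5 of the 11 were higher and 4 lower, where 33.4% of all genes were higher and 33.3% lower. Cdkn1b, the inhibitor p27, had 0.77 there.

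**Figure D5:**
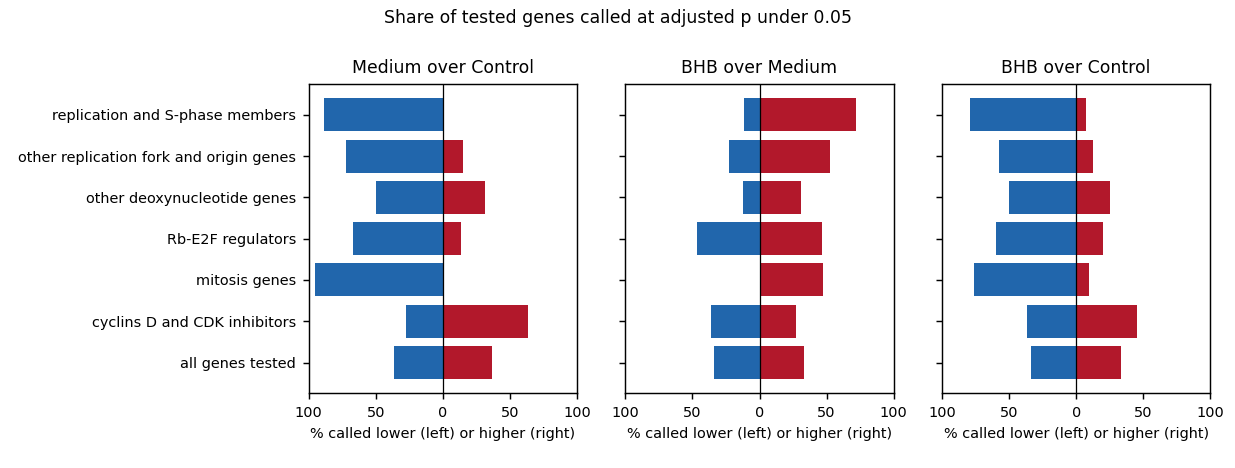
Percent of tested genes called lower (blue, to the left) or higher (red, to the right) in Medium over Control, BHB over Medium and BHB over Control, for the 43 members, the 5 related lists and all 10413 genes tested. In Medium over Control the members and the mitosis genes have no red bar, against 36.3% called higher over all genes.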

How the data were processed

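The authors deposited whole-number counts per gene symbol for 9 BV-2 libraries, neither normalized nor pooled. The study's methods name Skewer, FastQC, STAR in strand-specific mode on GRCm38 with GENCODE M21, StringTie and DESeq2, while HISAT2, Trimmomatic, FastQC 0.11.5 and StringTie with GRCm38 are named in the processing notes of the submitters. Tools and strand settings for counting are not given in the sources used here.

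Counts were filtered with filterByExpr of edgeR 4.0.16 in R 4.3.3, which kept 10413 of 12413 symbols, scaled by TMM and tested with the quasi-likelihood functions glmQLFit and glmQLFTest on the 9 libraries together. P-values were Benjamini-Hochberg adjusted over all genes, with calls at 0.05. The standard error is the size of the log2 fold change divided by the square root of F. CPM are TMM-normalized, and levels per kilobase divide them by the union of exons in GENCODE M21, which names 99.2% of the symbols. Totals of 23411672 to 32767278 counts set the precision of low genes. The script was tested on simulated counts. Groups came from the labels.

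The 44 members, their roles, the 5 related lists and the markers were chosen with earlier results of these data known. Values of every library are given for the member with the largest change of each role group in each comparison, members called against the majority and members called in no comparison, and up to 4 genes with the smallest p are named per related list, except 1 that is not reported here. Promoter sequences are from RefSeq (GRCm38.p6), with an entry for 35 of the 43 members. Alternatives were DESeq2 1.42.0, limma-voom (limma 3.58.1), RLE factors, library sizes alone, no filter, at least 10 counts in every library, fits of 2 groups alone, a test against a 2-fold change, a block for the replicate number, and each library left out.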

Additional observations from a re-analysis of the deposited data

How the results depend on the processing

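Of 129 member results (43 genes in 3 comparisons), 105 kept their call in all 17 alternatives that test for any change, 24 changed it in at least 1, and none reversed; DESeq2, limma-voom, RLE factors, no filter on low counts and at least 10 counts in every library changed no member call. With library sizes alone, the medians were -1.23 in Medium against Control, 0.60 in BHB against Medium and -0.63 in BHB against Control, 3 members were lower in BHB than in Medium and 1 was higher in BHB than in Control; over all genes this scaling called 2276 higher and 5375 lower in Medium against Control, 4296 and 2601 in BHB against Medium, and 2529 and 4414 in BHB against Control. Against a 2-fold change, 18 members were lower in Medium than in Control, while BHB against Medium had 5 higher and 0 lower and BHB against Control 0 higher and 0 lower; over all genes it called 526 higher and 637 lower, 397 and 235, and 387 and 283. Leaving out each library in turn gave 0 to 1 members higher and 37 to 38 lower in Medium against Control (median -1.00 to -0.93), 29 to 34 higher and 3 to 5 lower in BHB against Medium (median 0.43 to 0.51), and 1 to 3 higher and 33 to 34 lower in BHB against Control (median -0.56 to -0.47); the lowest numbers were 3 lower without BHB replicate 3 and 1 higher without Control replicate 2. Without the 6 members that share at least 10% of their exon bases with another gene of the count table (Fen1 and Orc1, whose partners were not analysed here, stayed in), an alternative chosen after seeing the data, the medians were -1.08, 0.49 and -0.60 in Medium against Control, BHB against Medium and BHB against Control. Some fits held fewer genes, libraries or members, and the cause of these shifts was not tested. Deviations of same-numbered libraries from their group means correlated between -0.071 and 0.063, and those of differently numbered libraries between -0.082 and 0.055. These correlations gave no sign of pairing by replicate number, though they cannot show how the cultures were made. With the replicate number as a block, 38 members were lower in Medium than in Control. In that fit, BHB against Medium had 31 higher and 5 lower and BHB against Control 3 higher and 34 lower. Its medians were -0.96, 0.47 and -0.49 in Medium against Control, BHB against Medium and BHB against Control, and no member call changed. Members with few counts, such as Orc1, Ccne2 and Gins1, have the widest standard errors.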
